A study of Mus musculus with 11 samples.

Results

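Transcripts of 10 phospholipase A2 and prostaglandin genes were examined in the colonic epithelium of DSS-treated mice fed with or without cellulose. They were found by symbol among the 52550 genes of the deposited count table: Pla2g4a, Pla2g4c, Pla2g4f, Pla2g2a, Pla2g10, Ptgs2, Ptges, Hpgd, Ptgr1 and Ptger4. Pla2g4f was selected on its own CPM in these mice, for its higher level without cellulose, so its values are a description and carry no test. The other 9 genes were listed for their place in the pathway, but with earlier results of these data known. All 11 animals were RAG1 KO mice of the C57BL/6 strain, which lack mature T and B cells. The 5 CD mice ate a purified diet with 7% cellulose as its only fiber, and the 6 FFD mice ate the same diet with no fiber. Both groups were kept on the diet for 4 weeks and then drank 1.5% DSS (dextran sulfate sodium, which injures the colonic epithelium) for 5 days. Neither the labels nor the methods used here give the age of these mice. Each CD library held between 20853535 and 28588266 counts, and each FFD library between 10374154 and 27973285, the fewest in FFD 4. The epithelial markers were abundant in every library, with Epcam averaging 1658 ± 53.2 CPM (SD, n = 5) across CD mice and 2042 ± 170.3 CPM (SD, n = 6) across FFD mice. Levels are given as CPM; CPM scales the counts of a gene to the normalized total of its library.

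Phospholipases A2 cut a fatty acid, often arachidonic acid, from membrane phospholipids. Cyclooxygenases turn arachidonic acid into an unstable intermediate from which terminal synthases make the prostaglandins, and prostaglandin E2 then leaves the cell, binds to receptors on nearby cells and is taken up and degraded. In the colon, prostaglandin E2 is known for its part in epithelial repair after injury, and the degrading enzyme Hpgd is abundant in mature colonocytes.

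Of the genes described below, Pla2g4f (chosen for its higher level in FFD mice), Pla2g4a (lower) and Ptges (higher) are shown here, to set the starts of genes with unlike diet differences side by side, by the 250 bases before their annotated RefSeq start (GRCm38.p6), read 5′ to 3′ on the strand of the gene. Capitals mark a direct repeat in Pla2g4f and the GC box GGGCGG in Ptges, and Pla2g4a has no capitals.
Pla2g4f, chr2:120314166-120314415, minus strand: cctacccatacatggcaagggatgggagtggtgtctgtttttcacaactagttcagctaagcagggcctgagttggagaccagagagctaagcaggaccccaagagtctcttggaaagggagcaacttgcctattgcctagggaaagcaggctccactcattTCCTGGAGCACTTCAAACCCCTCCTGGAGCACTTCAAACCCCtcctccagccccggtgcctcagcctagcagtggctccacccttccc
Pla2g4a, chr1:149961291-149961540, minus strand: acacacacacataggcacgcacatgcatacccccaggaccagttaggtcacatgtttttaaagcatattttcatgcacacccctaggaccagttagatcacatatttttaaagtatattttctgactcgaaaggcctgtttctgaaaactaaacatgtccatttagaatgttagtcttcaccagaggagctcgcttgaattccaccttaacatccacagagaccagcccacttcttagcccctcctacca
Ptges, chr2:30903298-30903547, minus strand: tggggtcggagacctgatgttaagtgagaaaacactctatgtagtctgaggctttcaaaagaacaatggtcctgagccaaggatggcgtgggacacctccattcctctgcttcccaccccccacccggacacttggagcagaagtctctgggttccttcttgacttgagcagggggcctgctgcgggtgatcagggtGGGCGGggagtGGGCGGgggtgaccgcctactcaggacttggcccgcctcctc
None of these windows overlaps an annotated exon, and the gene model of Ptges also has a start further upstream. In Pla2g4f, 21 bases occur as 2 adjacent copies that begin 88 and 67 bases before the start. A direct repeat of at least that length was present in 1.03% of 32817 RefSeq promoters of the same length. The Pla2g4a window holds a direct repeat of 12 bases, not in capitals, that begins 216 and 166 bases before the start, and one at least as long was present in 6.91% of the promoters. The windows hold 1 CpG in Pla2g4f, 3 in Pla2g4a and 8 in Ptges, at 56.0%, 43.2% and 59.6% G and C. On both strands, with N for any base, the letters TATAAA (the TATA box, in 12.4% of the promoters), TGACGTNA (2.52%), GGGANTTTC (0.942%), GGGCGG (32.7%), CAAAGTCCA (0.384%), TGACNNNGC (10.2%) and TTGCGNAA (0.67%) were searched. The windows of Pla2g4f and Pla2g4a printed here matched none of them, and Ptges matched GGGCGG 53 and 42 bases before its start. RefSeq also gives Pla2g4a a start inside the gene, whose window (chr1:149922440-149922689, minus strand, not printed) holds TATAAA on the other strand 200 bases before that start. These matches are descriptions of the letters in the windows.

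The genes did not move together. All 10 passed the filter on low counts, and of the 9 that could be tested, Pla2g10 and Ptges were higher in FFD mice, Pla2g4a, Pla2g4c and Ptgr1 were lower, and Ptgs2, Hpgd, Pla2g2a and Ptger4 did not pass (edgeR's quasi-likelihood test with Benjamini-Hochberg adjustment over all genes, threshold 0.05). Of all 15044 genes tested, 36.8% passed, 18.2% as higher and 18.6% as lower. The 2 higher and 3 lower of 9 are to be read against this wide background. The 9 genes were also listed with earlier results of these data known, so their share is a description. The median log2 fold change, FFD over CD, was 0.25 for the 9 genes and -0.033 for all genes tested. The values of the diets did not overlap in 2 of the 9, Pla2g4a and Ptgr1, and in 18.5% of all genes tested. In bulk RNA, fewer cells of a type and less RNA per cell cannot be told apart.

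**Figure D1:**
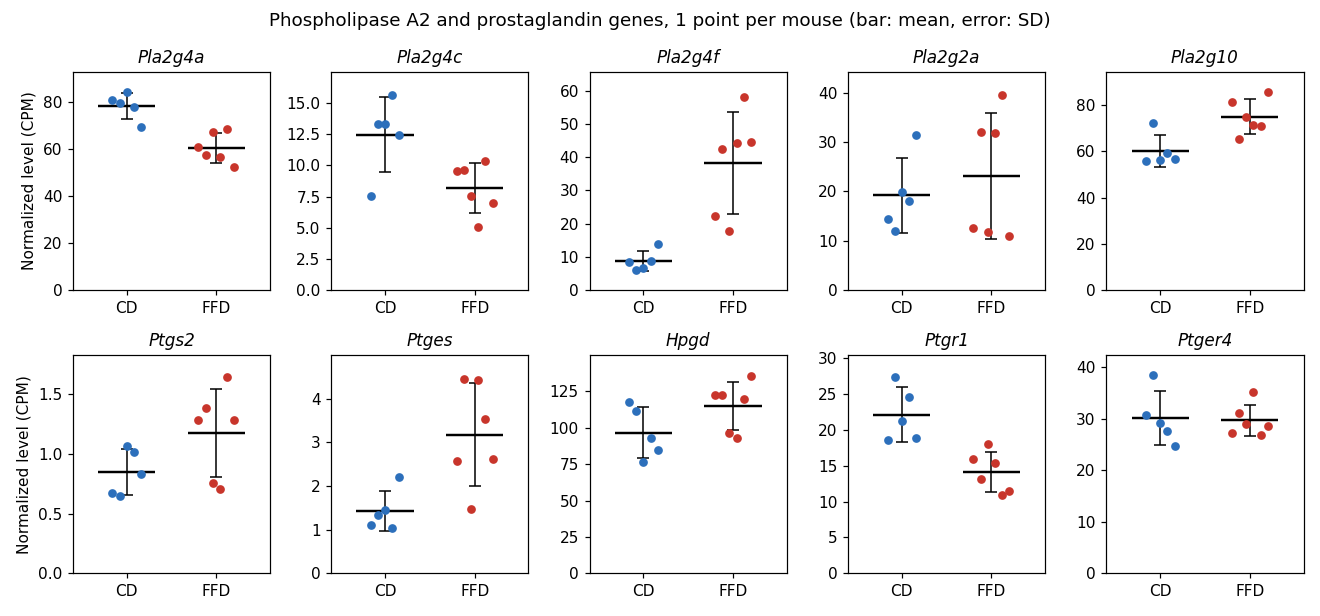
Normalized level (CPM, vertical axis from 0) of the 10 genes in CD (blue, n = 5) and FFD (red, n = 6) mice, 1 point per mouse, with the mean as a bar and the SD as an error bar. The diets are apart without overlap in Pla2g4a, Pla2g4f and Ptgr1, and overlap in the other 7 genes.

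Compared per kilobase of exon, which allows levels of different genes to be set side by side, Hpgd was the most abundant transcript of the set and Ptgs2 the least. In CD mice the mean levels fell in the order Hpgd (57.5 CPM per kb), Pla2g10 (39.9), Pla2g2a (20.7), Pla2g4a (12.3), Ptgr1 (9.63), Ptger4 (4.53), Pla2g4c (3.32), Pla2g4f (2.72), Ptges (0.364) and Ptgs2 (0.185). Between neighbours in that order, the values of single CD mice were apart for Pla2g10 and Pla2g2a, Ptgr1 and Ptger4, Pla2g4f and Ptges, and Ptges and Ptgs2, and overlapped for the other 5 pairs. In FFD mice Pla2g4f, at 11.9 CPM per kb, stood between Pla2g2a (24.95) and Pla2g4a (9.46), and its values overlapped those of both. The order of the other 9 genes was the same in both diets.

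Among the cytosolic phospholipases, which act on membranes inside the cell, Pla2g4a and Pla2g4c were lower in FFD mice. Pla2g4f, chosen for its rise, was higher. Pla2g4a encodes the calcium-dependent enzyme known for the release of arachidonic acid. Its gene lies on chromosome 1 of GRCm38 from 149829618 to 149961290 on the minus strand, 138740 bases from Ptgs2 (150100031 to 150108227, plus strand) with 0 protein-coding genes between them. Pla2g4a was at 80.97, 79.3, 84.3, 78.0 and 69.5 CPM in the 5 CD mice. In the 6 FFD mice it ranged from 52.2 in FFD 6 over a median of 59.05 to 68.6 in FFD 5. Every FFD mouse was below every CD mouse, although FFD 5 and CD 5 were close to each other. This was a log2 fold change of -0.37 (SE 0.077, adjusted p = 0.00335 from edgeR), and the call held when any 1 mouse was left out.

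Pla2g4c encodes a calcium-independent member that is anchored to membranes by a lipid. It was at 7.52, 13.3, 13.3, 15.7 and 12.5 CPM in CD mice and from 5.04 (FFD 4) over a median of 8.54 to 10.4 CPM (FFD 5) in FFD mice. The diets overlapped through CD 1 alone, which was below 4 of the 6 FFD mice, while the other 4 CD mice were above all FFD mice. Pla2g4c had a fitted log2 fold change of -0.59 (SE 0.19, adjusted p = 0.0309 from edgeR). Pla2g4c lost its call without CD 2, CD 3, CD 4, CD 5, FFD 3, FFD 4 or FFD 6 (log2 fold changes of -0.57 to -0.49, adjusted p = 0.0501 to 0.0829 from edgeR), and over all 18 alternatives the adjusted p was 0.00782 to 0.132.

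Pla2g4f, a member of the same family in a cluster on chromosome 2 (120299957 to 120314165, minus strand), was chosen for the values that follow. It was at 8.48, 5.94, 6.69, 8.64 and 13.9 CPM in CD mice and from 17.8 (FFD 3) over a median of 43.3 to 58.1 CPM (FFD 5) in FFD mice. All FFD mice were above all CD mice, and FFD 1 (22.2 CPM) and FFD 3 were nearer to the CD mice than the other 4, which were at 42.5 to 58.1 CPM. The fitted log2 fold change was 2.13 (SE 0.31), and 1.96 to 2.37 with 1 mouse left out. The neighbouring Pla2g4d, 10759 bases away, and Pla2g4e, 54621 bases away, had 38 and 75 counts over all 11 mice and were too low to test. Pla2g4b, 256926 bases away and of uncertain count since its exons overlap those of Gm28042 and Sptbn5, averaged 0.698 ± 0.191 CPM (SD, n = 5) across CD mice against 0.624 ± 0.326 CPM (SD, n = 6) across FFD mice.

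Per kilobase of exon, Pla2g4a made up 58.1 to 72.3% of all transcripts of the family in CD mice (median 68.9%) and 33.7 to 57.5% in FFD mice (median 36.4%). Pla2g4f made up 10.3 to 23.1% in CD mice (median 14.0%) and 30.4 to 57.6% in FFD mice (median 55.0%). The share of Pla2g4c had medians of 18.5% in CD and 9.46% in FFD mice, with overlapping ranges of 11.46 to 21.6% and 5.59 to 13.3%. The shares depend on Pla2g4f, the gene chosen for its rise, and were not tested. The sum over the family was 17.5 to 19.3 CPM per kb in CD mice and 18.3 to 31.8 CPM per kb in FFD mice.

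**Figure D2:**
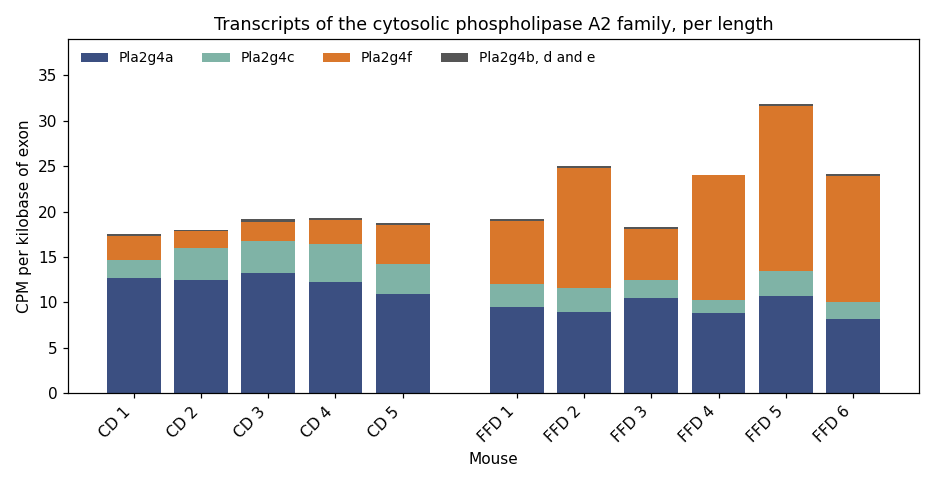
Transcript level per kilobase of exon (CPM per kb, vertical axis) of the 6 cytosolic phospholipase A2 genes, stacked for each of the 11 mice. The part of Pla2g4f (orange) is larger in every FFD mouse than in any CD mouse, and the parts of Pla2g4b, Pla2g4d and Pla2g4e are barely visible.

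Of the secreted phospholipases of the set, Pla2g10 was called higher in FFD mice and Pla2g2a did not pass. Their fitted log2 fold changes were close, at 0.32 and 0.26, and were not tested against each other. Pla2g10 encodes a secreted enzyme that acts well on phosphatidylcholine, the main lipid of outer cell membranes. It was at 55.8, 72.0, 56.2, 59.4 and 56.4 CPM in CD mice and from 65.3 (FFD 2) over a median of 73.1 to 85.6 CPM (FFD 6) in FFD mice. Except for CD 2, which lay within the range of the FFD mice, all CD mice were below all FFD mice. The log2 fold change was 0.32 (SE 0.086, adjusted p = 0.0118 from edgeR) and kept its call when any 1 mouse was left out. Scaled by library totals alone, without TMM, the log2 fold change of Pla2g10 was 0.17 (adjusted p = 0.151 from edgeR, with 0.00174 to 0.151 over all 18 alternatives).

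Pla2g2a encodes a secreted enzyme with known activity against Gram-positive bacteria, and GENCODE lists the mouse gene as a polymorphic pseudogene, since C57BL/6 mice carry a disrupted allele. Its transcript was at 14.4, 12.02, 19.9, 18.2 and 31.5 CPM in CD mice and from 10.9 (FFD 6) over a median of 22.3 to 39.5 CPM (FFD 5) in FFD mice. The FFD mice stood in 2 groups of 3, with FFD 1, FFD 3 and FFD 6 at 10.9 to 12.6 CPM and FFD 2, FFD 4 and FFD 5 at 31.9 to 39.5 CPM. The diets overlapped, and the log2 fold change of 0.26 (SE 0.36) did not pass (adjusted p = 0.595 from edgeR).

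Among the enzymes that make prostaglandin E2, Ptges was higher in FFD mice at a low level, and the cyclooxygenases were near the lower end of what the libraries measured. Ptgs2, the inducible cyclooxygenase, had 7 to 41 counts per mouse. It was at 0.677, 0.648, 1.06, 1.02 and 0.835 CPM in CD mice and from 0.705 (FFD 4) over a median of 1.28 to 1.64 CPM (FFD 5) in FFD mice. FFD 3 and FFD 4 lay within the range of the CD mice and the other 4 FFD mice above it. Ptgs2, with a log2 fold change of 0.49 (SE 0.26), did not pass (adjusted p = 0.145 from edgeR).

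Ptges encodes the inducible membrane-bound synthase of prostaglandin E2 and had 28 to 103 counts per mouse. It was at 1.11, 1.33, 1.46, 1.05 and 2.20 CPM in CD mice and from 1.48 (FFD 3) over a median of 3.07 to 4.45 CPM (FFD 2) in FFD mice. CD 5 was above FFD 3, and the other 5 FFD mice were above all CD mice. Ptges was higher in FFD mice by a log2 fold change of 1.13 (SE 0.29, adjusted p = 0.0098 from edgeR), and the call held under all 18 alternatives.

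Of the isoenzymes of the same steps, Ptgs1 did not pass, like Ptgs2, while Ptges2 and Ptges3 were lower in FFD mice, unlike Ptges. Ptgs1, the constitutive cyclooxygenase, averaged 0.719 ± 0.345 CPM (SD, n = 5) across CD mice against 1.29 ± 0.36 CPM (SD, n = 6) across FFD mice. Its log2 fold change of 0.81 did not pass (adjusted p = 0.0739 from edgeR) but did so without CD 4 (0.0495), without FFD 2 (0.0382) and with DESeq2 (0.0479), with 0.0382 to 0.196 over all 18 alternatives. Ptges3, a cochaperone that can also act as a cytosolic synthase of prostaglandin E2, held 91.8 to 93.0% of the transcripts of the 3 synthases per kilobase in CD mice and 89.5 to 92.1% in FFD mice. It was lower in FFD mice by a log2 fold change of -0.37 (adjusted p = 0.00733), as was Ptges2 by -0.26 (adjusted p = 0.0135). With replicate number as a block, Ptges2 did not pass (adjusted p = 0.0719 from edgeR). The share of Ptges was 0.237 to 0.531% in CD mice and 0.412 to 1.48% in FFD mice.

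Of the 2 degrading enzymes, Ptgr1 was lower in FFD mice and Hpgd did not pass. Hpgd encodes the dehydrogenase that starts the inactivation of prostaglandin E2. It was at 118, 111, 76.7, 93.0 and 84.7 CPM in CD mice and from 93.0 (FFD 4) over a median of 121 to 136 CPM (FFD 6) in FFD mice. FFD 3 and FFD 4 lay within the range of the CD mice, and the other 4 FFD mice were above it. The log2 fold change was 0.25 (SE 0.13, adjusted p = 0.134 from edgeR), and it passed the threshold without CD 1 alone (log2 fold change 0.35, adjusted p = 0.0499, with 0.0499 to 0.539 over all 18 alternatives).

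Ptgr1 encodes the reductase that acts after Hpgd and also inactivates leukotriene B4. It was at 18.6, 27.3, 21.2, 24.6 and 18.8 CPM in CD mice and from 10.9 (FFD 5) over a median of 14.3 to 18.0 CPM (FFD 3) in FFD mice. Every FFD mouse was below every CD mouse, and the distance from FFD 3 to CD 1 was small. Ptgr1 was lower by a log2 fold change of -0.65 (SE 0.14, adjusted p = 0.00458 from edgeR), and the call of Ptgr1 held under all 18 alternatives.

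Ptger4, the prostaglandin E2 receptor that raises cyclic AMP and is known for protection of the epithelium in DSS colitis, did not pass the test. It was at 30.6, 38.5, 29.1, 27.5 and 24.8 CPM in CD mice and from 26.9 (FFD 5) over a median of 28.8 to 35.2 CPM (FFD 4) in FFD mice. All FFD mice lay within the range of the CD mice. The log2 fold change was -0.026 (SE 0.11, adjusted p = 0.873 from edgeR). Per kilobase, Ptger4 made up 70.3 to 82.8% of the transcripts of the 4 prostaglandin E2 receptors in CD mice and 75.3 to 86.4% in FFD mice. Exons of Ptger4 overlap those of Gm15937 and Ttc33 on the other strand, so part of its count is uncertain. Of the other receptors, Ptger3 (log2 fold change -0.40, adjusted p = 0.11) and Ptger1 (0.92, adjusted p = 0.103) did not pass with edgeR, and Ptger2 had 11 counts over all mice. Ptger1 passed without CD 5 (adjusted p = 0.0178, with 0.0178 to 0.213 over all 18 alternatives), and part of its count is uncertain. Ptger3 passed without TMM (adjusted p = 0.0434, with 0.0434 to 0.212 over all 18 alternatives).

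Around the set, 83 other genes of the pathway were listed in 6 groups, of which 61 were abundant enough to test. Of these, FFD mice had 14 at a higher and 12 at a lower level, and 35 did not pass, with a median log2 fold change of 0.083. The 26 calls make 42.6% of the genes tested, against 36.8% of all genes. These genes too were listed with earlier results of these data known, so the share is a description. The values of the diets did not overlap in 12 of the 61 genes, against 18.5% of all genes tested. Without TMM, 8 were higher and 20 lower, against 1636 higher and 4863 lower of all 15044 genes.

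**Figure D3:**
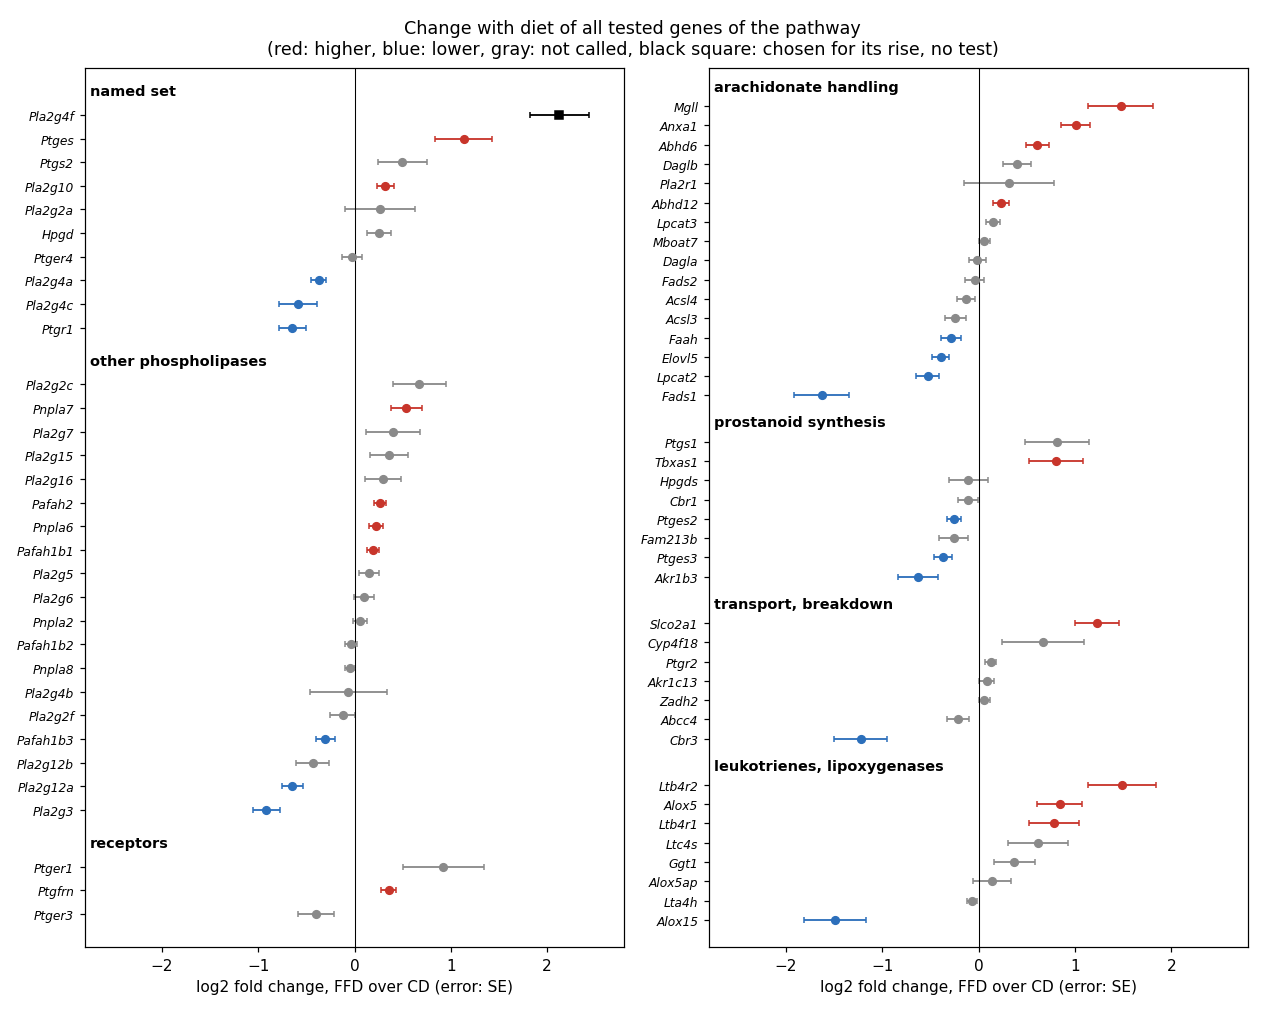
Log2 fold change, FFD over CD, with its SE (horizontal axis) of the 10 genes of the set and 61 other genes of the pathway that were tested, by group. Pla2g4f (black square) was chosen for its rise and not tested, genes in red were higher, genes in blue lower and genes in gray not called, and each group except the receptors holds both red and blue genes.

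Of 19 other phospholipase A2 genes tested, 4 were higher and 3 lower, a share of 36.8%, as over all genes tested. The secreted enzyme gene Pla2g3 averaged 9.14 ± 1.34 CPM (SD, n = 5) across CD mice against 4.89 ± 0.904 CPM (SD, n = 6) across FFD mice without overlap (log2 fold change -0.91, adjusted p = 0.0012 from edgeR), and its exons overlap those of Inpp5j. The secreted Pla2g12a was lower too (-0.65, adjusted p = 0.00164), likewise without overlap. Pnpla7 (0.54) and Pnpla6 (0.22), which act on lysophospholipids and phospholipids of the endoplasmic reticulum, were higher. So were Pafah2 (0.26), a hydrolase of platelet-activating factor, and Pafah1b1 (0.19), a noncatalytic subunit of another such hydrolase. Pafah1b3 (-0.30) was lower.

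Of 16 genes of other routes to and handling of arachidonic acid, 4 were higher and 4 lower. Mgll, which frees arachidonic acid from an endocannabinoid, averaged 12.1 ± 5.63 CPM (SD, n = 5) across CD mice against 33.8 ± 18.0 CPM (SD, n = 6) across FFD mice (log2 fold change 1.47, adjusted p = 0.00544 from edgeR). Abhd6 (0.61) and Abhd12 (0.23), which act on the same lipid, were also higher, and Faah (-0.29), which cleaves another endocannabinoid, was lower. Anxa1, an inhibitor of phospholipase A2 activity, averaged 162 ± 27.1 CPM (SD, n = 5) across CD mice against 325 ± 67.4 CPM (SD, n = 6) across FFD mice, with all FFD mice above all CD mice (log2 fold change 1.004, adjusted p = 0.00107). Fads1, the desaturase for the last step of arachidonic acid synthesis, averaged 38.9 ± 12.9 CPM (SD, n = 5) on the diet with cellulose and 12.4 ± 5.21 CPM (SD, n = 6) without it, with all FFD mice below all CD mice (log2 fold change -1.63, adjusted p = 0.00173). Fads2, the other desaturase of that route, averaged 221 ± 16.7 CPM and 215 ± 31.5 CPM (log2 fold change -0.041, adjusted p = 0.772). The elongase gene Elovl5 (-0.40) and the acyltransferase gene Lpcat2 (-0.53) were lower.

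Of 8 further prostanoid synthesis genes, Tbxas1, the thromboxane synthase (0.80), was higher, and Ptges2, Ptges3 and Akr1b3 (-0.63), a reductase that can make prostaglandin F, were lower. Hpgds, a prostaglandin D synthase, differed by -0.11 (adjusted p = 0.705), and Ptgds and Ptgis had 1 and 44 counts over all mice. Of 7 transport and breakdown genes, Slco2a1, the transporter that carries prostaglandins into cells for degradation, averaged 21.3 ± 5.7 CPM (SD, n = 5) across CD mice against 50.03 ± 15.4 CPM (SD, n = 6) across FFD mice, with all FFD mice above all CD mice (log2 fold change 1.23, adjusted p = 0.0021 from edgeR). Cbr3, a carbonyl reductase, was lower (-1.23, adjusted p = 0.00486), again without overlap. The exporter gene Abcc4 (-0.21, adjusted p = 0.158) and the reductase gene Ptgr2 (0.13, adjusted p = 0.0955) did not pass. Abcc4 passed without TMM (adjusted p = 0.0459), and Ptgr2 passed with DESeq2 (0.0492) and without CD 2 (0.0412), while without TMM its log2 fold change was -0.024.

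Of 3 other receptor genes tested, Ptgfrn, a partner protein of the prostaglandin F receptor, was higher (0.36, adjusted p = 0.00424 from edgeR). Of 8 leukotriene and lipoxygenase genes, Alox5 (0.84), which starts leukotriene synthesis, and the leukotriene B4 receptor genes Ltb4r1 (0.78) and Ltb4r2 (1.49) were higher at means of 0.68 to 2.95 CPM. With replicate number as a block, Alox5 did not pass (adjusted p = 0.0858 from edgeR). Alox15, a lipoxygenase, was lower, with averages of 5.91 ± 3.02 CPM (SD, n = 5) across CD mice and 2.04 ± 0.805 CPM (SD, n = 6) across FFD mice and no overlap (log2 fold change -1.49, adjusted p = 0.00417).

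Calls of 8 of these genes were lost when single mice were left out. Pafah1b1 lost its call without FFD 4 or FFD 5 (adjusted p = 0.0544 and 0.0547 from edgeR), Pafah1b3 without CD 2, CD 3, CD 4, FFD 2 or FFD 6 (0.0554 to 0.0711) and Pnpla6 without CD 2, CD 3, CD 4, FFD 2 or FFD 6 (0.0515 to 0.0654). Akr1b3 lost it without CD 2, CD 3, CD 4, FFD 2, FFD 5 or FFD 6 (0.0505 to 0.0846), and Ltb4r1 without CD 2, CD 3, FFD 1, FFD 4, FFD 5 or FFD 6 (0.0555 to 0.0777). Tbxas1 kept it without CD 4, FFD 3 or FFD 4 and lost it without any other mouse (0.0509 to 0.0805). Abhd12 kept it without CD 1 or FFD 3 and lost it without any other mouse (0.0516 to 0.0884), and Faah kept it without FFD 6 alone (0.0542 to 0.138 without any other mouse). Without TMM, 6 of the genes called higher did not pass, namely Pafah2 (log2 fold change 0.11, adjusted p = 0.165), Pnpla6 (0.066, adjusted p = 0.403), Pafah1b1 (0.035, adjusted p = 0.643), Abhd12 (0.074, adjusted p = 0.438), Tbxas1 (0.64, adjusted p = 0.0712) and Ltb4r1 (0.62, adjusted p = 0.0663). Over all 18 alternatives the adjusted p from edgeR, DESeq2 or limma was 0.00112 to 0.165 for Pafah2, 0.00977 to 0.403 for Pnpla6, 0.00327 to 0.643 for Pafah1b1, 0.00418 to 0.438 for Abhd12, 0.0166 to 0.144 for Tbxas1 and 0.016 to 0.0777 for Ltb4r1.

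Genes of the same step and of different steps were compared without scaling between libraries. For this, the log2 ratio of the counts of 2 genes was taken within each mouse for 8 pairs. The exact two-sided permutation test over mice has 462 arrangements and a smallest p of 0.00216. After adjustment over the 8 pairs no ratio passed, and 3 had an unadjusted p under 0.05. The log2 ratio of Ptgs2 to Ptgr1 was higher in FFD mice by 1.09 (exact permutation p = 0.0216, adjusted 0.0952), from -4.65 ± 0.407 (SD, n = 5) to -3.56 ± 0.697 (SD, n = 6). It was higher in 4 of 6 FFD mice than in any CD mouse, with FFD 3 and FFD 4 within the CD range. The ratio of Ptgs2 to Pla2g4a differed by 0.82 (exact permutation p = 0.0238, adjusted 0.0952), with FFD 3 alone within the CD range. The ratio of Ptges to Hpgd differed by 0.84 (exact permutation p = 0.0476, adjusted 0.127). The other differences were 0.65 for Ptges to Ptgs2, 0.53 for Pla2g2a to Pla2g4a, 0.19 for Ptgs2 to Hpgd, -0.22 for Pla2g4c to Pla2g4a and -0.47 for Ptgs2 to Ptgs1, with adjusted exact permutation p-values of 0.19 to 0.459.

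**Figure D4:**
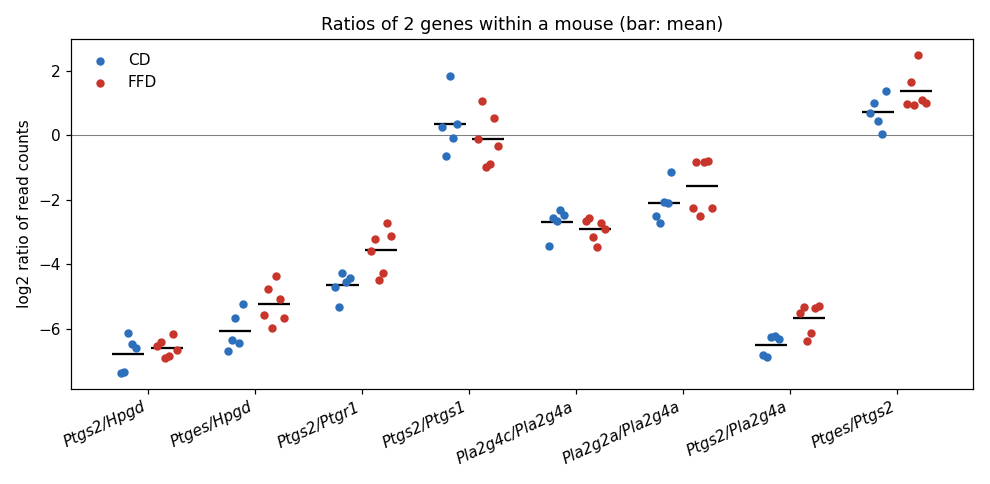
Log2 ratio of read counts of 2 genes within a mouse (vertical axis) for 8 pairs, in CD (blue, n = 5) and FFD (red, n = 6) mice, with the mean as a bar. The ratios of Ptgs2 to Ptgr1 and of Ptgs2 to Pla2g4a have the higher mean in FFD mice, but some FFD mice lie among the CD mice in each of the 8 pairs.

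Once the mean of each diet was taken away, the genes whose log2 CPM varied most like that of Pla2g4f over the 11 mice, among 11900 genes searched, were Nlrx1 (Pearson correlation 0.99), Fbxl5 (0.985), Ppm1j (0.976), Rdh16 (0.976) and Plekhm1 (0.975). For Ptgs2 they were Eif4e3 (0.965), Fam118b (0.958), Ido1 (0.946), Prdm4 (0.939) and Tmem252 (0.935), at 7 to 41 counts of Ptgs2 per mouse. For Hpgd they were Tsc22d3 (0.97), Gpx7 (0.93), Plpp6 (0.924), Fzd5 (0.915) and Rgs2 (0.906). These are the highest of many values over the same 11 libraries, which share their depth and scaling, and are descriptions.

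Markers of several cell types passed the test as well, to be read beside the 18.2% of all genes tested called higher and the 18.6% called lower. Of 10 colonocyte markers, 7 were higher in FFD mice, with a summed level of 8608 to 12193 CPM in CD mice against 14280.2 to 26014 CPM in FFD mice. Of 8 goblet cell markers 4 were higher and 1 lower, of 8 tuft cell markers tested 5 were higher, with a sum of 19.8 to 35.7 CPM in CD mice against 31.2 to 57.0 CPM in FFD mice, and of 8 general epithelial markers 7 were higher. Of 12 macrophage and monocyte markers 2 were higher, a share of 16.7%, near the 18.2% of all genes tested. The summed level of these markers was 86.8 to 128 CPM in CD mice against 127 to 158 CPM in FFD mice. Most of that sum was Cd14 alone, at 68.9 to 105 CPM in CD mice against 104 to 131 CPM in FFD mice. C1qb was the other marker called higher (log2 fold change 0.84, adjusted p = 0.0293 from edgeR). It averaged 0.891 CPM with cellulose and 1.62 CPM without it. Lyz2, the next most abundant after Cd14, did not pass (log2 fold change 0.44, adjusted p = 0.0951 from edgeR). The diet means of Cd68, C1qa and Fcer1g were 1.24 to 1.64 CPM, with log2 fold changes of 0.099, 0.079 and 0.046. Ly6c2 (0.81, adjusted p = 0.098 from edgeR), Ccr2 (0.66, adjusted p = 0.0871) and C1qc (0.41, adjusted p = 0.238) differed more, but did not pass. With and without cellulose, Ly6c2 averaged 0.745 and 1.35 CPM, and Ccr2 0.723 and 1.14 CPM. Log2 fold changes of the 12 markers ran from -0.42 (Adgre1, the only negative value) to 0.84, with a median of 0.35. An unadjusted p under 0.05 in edgeR was found for 5 of the 12. Of 3 neutrophil markers tested 1 was higher with edgeR, namely S100a8 at 7 to 123 counts per mouse, and 0 with limma-voom. The sum of the neutrophil markers was 1.26 to 4.83 CPM in CD mice against 3.44 to 12.2 CPM in FFD mice. Of the 5 mast cell, 1 fibroblast and 3 endothelial markers tested, 0 passed with edgeR and limma-voom and 1 mast cell marker with DESeq2, and 1 mast cell and 1 endothelial marker had an unadjusted p under 0.05 in edgeR. Their summed levels were 20.03 to 51.9 CPM for mast cells, 4.401 to 8.42 CPM for fibroblasts and 3.69 to 7.68 CPM for the endothelium over both diets, but Kit (15.5 to 45.4 CPM) made up most of the first sum and Pdgfrb (3.81 to 7.75 CPM) most of the second. Among the mast cell markers, Cpa3, Mcpt4 and Fcer1a were under 1 CPM in every mouse. Mcpt1 was at 1.51 to 3.59 CPM and Mcpt2 at 0.961 to 2.38 CPM over both diets. The fibroblast markers Col1a1 and Lum were under 1 CPM in every mouse, and 6 of 8 fibroblast markers had fewer than 50 counts over all mice. The part of these cell types in the levels of Pla2g4f, Ptges and the other genes was not tested.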

How the data were processed

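Libraries of colonic epithelial RNA, 1 for each of 5 CD and 6 FFD mice, were analysed. The authors read poly(A) RNA as single reads of 59 bases, aligned the reads to GRCm38 in the CLC Workbench 10.0.1 and deposited an unnormalized count for each gene. FastQC, R 3.5.1 and DESeq2 1.22.2 are named in the submitters' processing notes. Which annotation was used, whether strand was, and how reads shared by several genes were counted is not stated in the sources used here.

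From the counts, 15044 of 52550 genes passed filterByExpr (minimum count 10, minimum total 15) and were normalized by TMM and tested for diet with the quasi-likelihood test of edgeR 4.0.16 in R 4.3.3. Benjamini-Hochberg adjustment ran over all genes, and 0.05 was the threshold. Alternatives were DESeq2 1.42.0, its size factors in edgeR, no TMM, limma-voom (limma 3.58.1), a strict filter (1 CPM in 5 mice), no filter, a replicate block and each mouse left out. Ratios used counts plus 1. The fit and the permutation test were tested on simulated data. Exon lengths and overlaps came from GENCODE M21 and promoters from RefSeq, which held 9 of the 10 genes.

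The members and gene lists were chosen with earlier results of these data known. Named genes are every member, every listed pathway gene that passed and the isoenzymes and receptors of the same step. Others (Fads2, single cell type markers and exon neighbours) were named after their values were seen. The sample names carry a 1 in CD and a 2 in FFD, and if this marks a cage or batch, its effect and that of the diet cannot be told apart.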

Additional observations from a re-analysis of the deposited data

Results flagged for a closer look

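Pla2g10 in CD 2 stood apart from the other mice of its group. It was at 72.0331 CPM, against 55.8 to 59.4 CPM in the other 4 CD mice, and its gap to the nearest of them was 0.78 of the range of the group, above the Dixon limit of 0.71 for 5 samples. It was the only value past that limit among 36 groups of mice examined, and chance passes it in about 1 of 20. Without CD 2, the log2 fold change of Pla2g10 was 0.41, against 0.32 with it.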

How the results depend on the processing

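Over 43 named genes and their 773 values under alternatives, 673 kept their direction and side of the threshold, 84 lost and 9 gained a call, and 7 changed sign. The 673 include 18 values of Pla2g4f, which was chosen for its rise and has no test. They were counted on its log2 fold change alone and are no support for its rise. The members called higher were 1 in place of 2 without TMM and 1 with the replicate block, and 2 to 3 with 1 mouse left out, while those called lower were 2 to 3. Of the other pathway genes, 8 were higher without TMM, 8 with the replicate block and 10 to 16 with 1 mouse left out, and 20 were lower without TMM and 9 to 12 with 1 mouse left out. Of all genes, 2740 were higher and 2792 lower with TMM, against 1636 and 4863 without it, where the median of all genes moved by -0.15. With 1 mouse left out, 4264 to 6079 genes were called. Changes of sign were those of Ptger4 (-0.076 to 0.093 with 1 mouse left out, above 0 without CD 2 or FFD 5), Pla2g4b (-0.20 to 0.11, above 0 without CD 1, CD 3 or FFD 4), Hpgds (-0.20 to 0.080, above 0 without CD 2) and Ptgr2 (-0.024 without TMM), none of which had passed. The cause was not tested. The replicate numbers did not pair the mice: same-numbered mice deviated with correlations of -0.117, -0.268, 0.117, -0.157 and 0.234 over the 1000 most variable genes. With the replicate block, 3782 genes were called in place of 5532, and among the members Pla2g10 (adjusted p = 0.0668) and Pla2g4c (0.132) did not pass. Depth limits the genes with few counts, among them Ptgs2 with 7, Ptgs1 with 6 and Pla2g4b with 0 in the lowest mouse.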
